A study of Mus musculus with 6 samples.

Results

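Amdhd1, Ccdc38, Snrpf, Hal and Lta4h are 5 consecutive protein-coding genes on chromosome 10 of the mouse, and their expression was compared between Control and Prmt1-null iGBs. They were found in the count table by gene symbol, which gave 5 of its 39017 genes. Amdhd1 and Ccdc38 were the reason for looking at this stretch, because both were lower in Prmt1-null iGBs in the same comparison. The members were thus chosen on the fold changes and calls of these 6 libraries, and the differences of Amdhd1 and Ccdc38 are given as a description without a test. Hal, Lta4h and Snrpf were added for their position, although their values in these libraries were already known.

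iGBs are B cells that take on a germinal center-like phenotype when grown on 40LB feeder cells, which supply CD40L and BAFF, in the presence of IL-4. Each group held 3 libraries from 3 mice of the C57BL6/J strain, 2 females and 1 male. Control mice were Cg1-cre and Prmt1-null mice were Cg1-cre Prmt1f/f, so that both groups carried the Cre transgene and differed in the floxed Prmt1 alleles. Cre is expressed from the Cγ1 locus, so that deletion follows activation of the B cells. The splenic B cells were cultured for 3.5 days, with IL-4 at 5 ng/ml according to the sample labels (the study's methods give a lower concentration), and the feeder cells were then depleted with an antibody to H2K. No age is given in the labels. The authors deposited raw counts of reads on the exons of each gene.

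The libraries held 45343250 to 62774232 counted reads each. Prmt1, the gene targeted by the deletion, had 3964, 3924 and 4838 normalized counts in Control and 1745, 1478 and 1477 in Prmt1-null iGBs, so that 36.9% of the Control mean was left. Normalized counts are counts scaled to the same effective library size by edgeR's TMM method, and they are used below unless a value is called a raw count or a level per length. The B cell markers Ms4a1, at 136342 to 142801 normalized counts in Control and 148203 to 150389 in Prmt1-null iGBs, and Pax5, at 10488 to 11754 and 10284 to 11334, were high in all 6 libraries, and neither passed the threshold defined below. Some markers of other cells moved with the group. The 10 feeder fibroblast markers summed to 27.8 to 31.5 CPM (library-size scaled counts) in Control and 31.4 to 36.9 CPM in Prmt1-null iGBs, with Postn at 0, and none passed it. The 5 plasma cell markers summed to 501 to 550 and 561 to 628 CPM, and none passed it. Most of the sum came from Xbp1, at 18433 to 18992 and 20852 to 24471 normalized counts, and Jchain, at 8032 to 10151 and 8240 to 8724. Xbp1 (122% of the Control mean), Prdm1 (122%) and Sdc1 (144%) had higher means in Prmt1-null iGBs and Jchain (93.9%) a lower one. The 7 myeloid markers summed to 8.92 to 21.5 and 16.5 to 18.5 CPM, and 1 of the 6 that were tested, Adgre1, passed it as higher in Prmt1-null iGBs (log2 fold change 0.73, adjusted p = 0.0319, edgeR). Of the other myeloid markers, S100a8, S100a9, Lyz2 and Mpo had lower means and Csf1r and Itgam higher means in Prmt1-null iGBs, and none passed. The 6 T cell markers summed to 1.19 to 2.9 and 1.43 to 3.01 CPM. The part of these cells in the results below was not tested. As in any bulk sample, fewer cells with a transcript and less of it per cell cannot be told apart.

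Hal and Amdhd1 both belong to the breakdown of histidine. Hal, histidine ammonia-lyase, removes ammonia from histidine to form urocanate, and Uroc1, Amdhd1 and Ftcd carry out the steps that follow and feed a one-carbon unit to folate. Amdhd1 is the imidazolonepropionase of this route, which is best known from liver and skin. Lta4h, leukotriene A4 hydrolase, makes the chemoattractant leukotriene B4 and is also an aminopeptidase. Snrpf encodes the F subunit of the Sm ring, which is assembled around the U snRNAs of the spliceosome. Ccdc38 encodes a coiled-coil protein known from the sperm flagellum.

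In GENCODE M21 (GRCm38, the assembly called mm10), Lta4h (ENSMUSG00000015889) lies on the plus strand at chr10:93453411-93484875, and Hal (ENSMUSG00000020017) follows on the same strand at chr10:93488768-93519304. Amdhd1 (ENSMUSG00000015890) lies on the minus strand at chr10:93523338-93540033. Ccdc38 (ENSMUSG00000036168) lies on the plus strand at chr10:93540632-93584327, and Snrpf (ENSMUSG00000020018) on the minus strand at chr10:93583029-93589706. Amdhd1 and Ccdc38 thus stand head to head, with 599 bases between their starts. Ccdc38 and Snrpf meet tail to tail and share 1299 bases, of which 567 are exonic in both genes. Together with the noncoding gene 4933408J17Rik, which runs over the start of Snrpf on the opposite strand, 735 of the 861 exon bases of Snrpf lie in exons of another gene in this annotation, against 567 of 4305 exon bases of Ccdc38. The libraries came from a stranded kit, but the strand setting of the counting is not given in the sources used here. The counts of Ccdc38 and Snrpf are therefore uncertain to the extent that reads from the shared exons were dropped or assigned to the other gene. Exons of Amdhd1, Hal and Lta4h are not shared with another gene.

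Promoter windows from RefSeq (GRCm38.p6), from 250 bases before to 50 bases after the start, were at hand for all 5 genes. Those of Amdhd1 and Ccdc38 are shown because the 2 genes were lower together and start next to each other, and that of Snrpf because its level followed that of Ccdc38 from library to library. Each is written 5′ to 3′ on the strand of its gene, at chr10:93539984-93540283 (minus) for Amdhd1, chr10:93540382-93540681 (plus) for Ccdc38 and chr10:93589609-93589908 (minus) for Snrpf. Capitals mark matches to one of the 9 motifs searched.
Amdhd1: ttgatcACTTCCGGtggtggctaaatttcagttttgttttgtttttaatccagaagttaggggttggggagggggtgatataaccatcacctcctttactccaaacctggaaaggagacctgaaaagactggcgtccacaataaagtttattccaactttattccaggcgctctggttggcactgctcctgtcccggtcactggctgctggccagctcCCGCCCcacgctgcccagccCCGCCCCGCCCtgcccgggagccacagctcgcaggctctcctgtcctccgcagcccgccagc
Ccdc38: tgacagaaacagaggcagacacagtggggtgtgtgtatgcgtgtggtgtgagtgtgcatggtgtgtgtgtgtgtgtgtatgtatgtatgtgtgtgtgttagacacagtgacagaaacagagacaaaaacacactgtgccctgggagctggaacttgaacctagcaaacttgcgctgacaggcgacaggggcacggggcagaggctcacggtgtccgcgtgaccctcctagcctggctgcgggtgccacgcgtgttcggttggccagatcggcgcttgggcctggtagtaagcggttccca
Snrpf: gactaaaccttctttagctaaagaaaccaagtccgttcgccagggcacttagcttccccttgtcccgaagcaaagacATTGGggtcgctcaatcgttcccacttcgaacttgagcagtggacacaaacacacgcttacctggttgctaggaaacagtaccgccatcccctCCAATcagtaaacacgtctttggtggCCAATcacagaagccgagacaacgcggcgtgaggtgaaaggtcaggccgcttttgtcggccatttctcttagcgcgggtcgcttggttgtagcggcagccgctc

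The motifs were searched on both strands, and each is given with the share of all 32851 promoter windows of the table that hold it. The E-box, CACGTG, was present in 7.15% of windows, and the NF-Y motif, CCAAT, in 37.4%. For the GC box, GGGCGG, the share was 35.7%, and for the ETS motif, CCGGAAGT, it was 3.89%. The cAMP response element, TGACGTCA, was held by 1.79% of windows, the NRF1 motif, GCATGCGC, by 2.71% and the YY1 motif, AAGATGGC, by 2.75%. The TATA box, TATAAA, was found in 13.6% and a part of the RFX X-box, GTTGCC, in 12.5%. The Amdhd1 window held 1 ETS match, at 244 bases before the start on the opposite strand, and 3 GC box matches close to the start, the last 2 of which share a base. The Snrpf window held 3 CCAAT matches. The Ccdc38 window held none of the 9, and neither did the window of its other annotated start inside the gene. Hal had a CCAAT and a TATA box match and Lta4h had 2 CCAAT matches. None of the 9 was thus found in the windows of both Amdhd1 and Ccdc38. Both windows had a GC content of 57%, against a median of 52.7% over all windows, with 12 and 14 CpG dinucleotides against a median of 7.

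**Figure D1:**
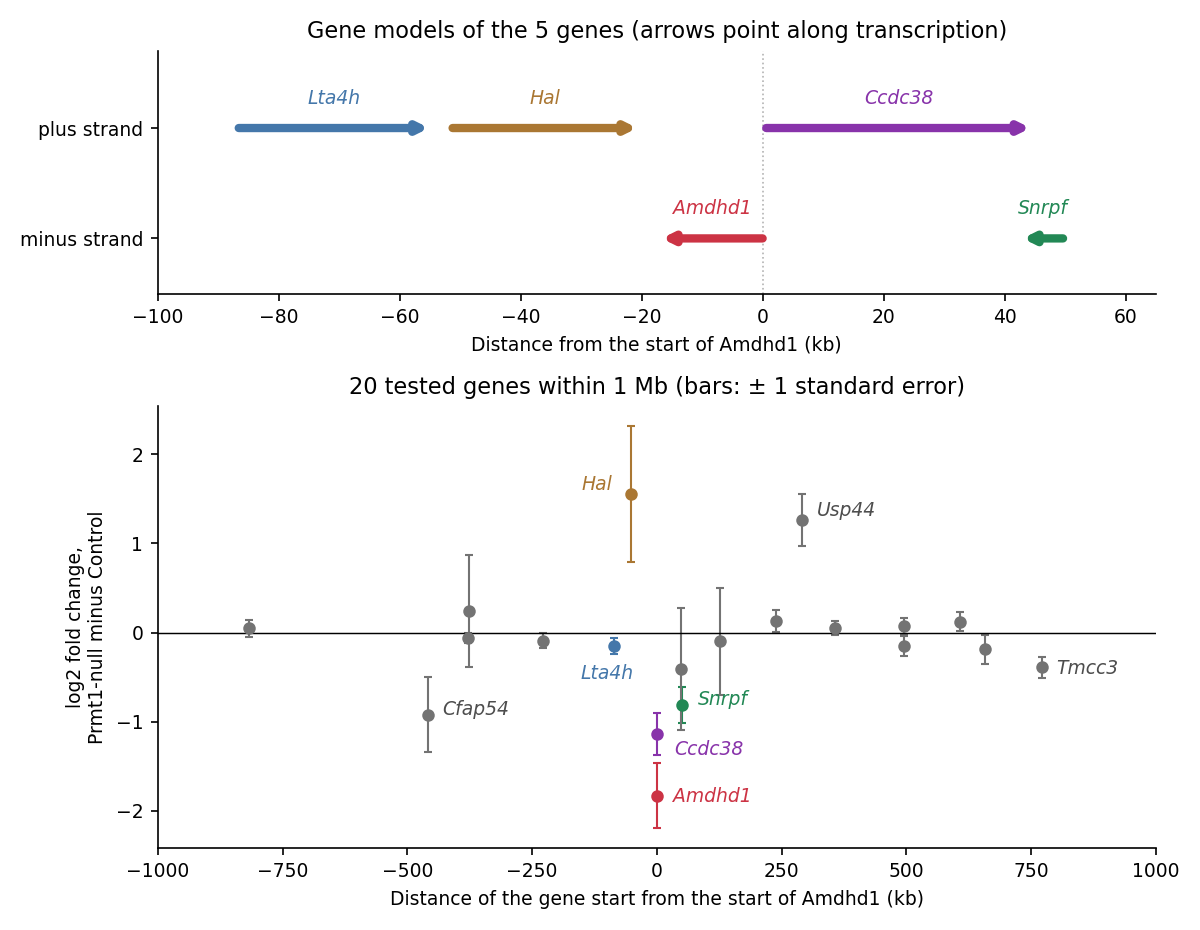
Top, the 5 genes drawn to scale by distance from the start of Amdhd1 (kb), on the plus or the minus strand, with arrows along transcription. Bottom, log2 fold change (Prmt1-null minus Control) with 1 standard error for the 20 tested genes whose starts lie within 1000 kb of the start of Amdhd1; Amdhd1, Ccdc38 and Snrpf lie below 0 at its center, while Lta4h (−0.15) and most other genes lie near 0.

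Of the 5 genes, 3 had lower mean normalized counts in Prmt1-null iGBs by a fold change of 1.75 to 3.55, 1 had a similar level in both groups and 1 was barely expressed. A gene was called at an adjusted p under 0.05 in the quasi-likelihood F-test of edgeR, adjusted after Benjamini and Hochberg over all 18268 genes tested, together with a mean normalized count over 100. By this rule 1.18% of the tested genes were called, 0.602% as lower and 0.58% as higher in Prmt1-null iGBs. Amdhd1 and Ccdc38 were called as lower and the other 3 members were not, but nothing can be read from that count, as these calls chose the members. When 1 library was left out at a time, the call remained in 2 of 6 fits for Amdhd1 and 1 of 6 for Ccdc38, and that of Ccdc38 was also lost with DESeq2 and with a replicate block. The groups did not overlap for 4 of the 5 genes, where 19.9% of all tested genes did not overlap (9.92% of all tested genes being lower in Prmt1-null iGBs throughout), and 3 of these 4 were lower. As the members include the 2 genes chosen for being lower, this count cannot be set against the background either.

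Amdhd1 had 263.6, 232.7 and 256.7 normalized counts in Control libraries 1, 2 and 3 and 23.29, 96.79 and 90.75 in Prmt1-null libraries 1, 2 and 3. The Control libraries lay close together, and every Prmt1-null library was far below them, with replicate 1 lower than the other 2. The means were 251 ± 16.3 (SD, n = 3) and 70.28 ± 40.8 (SD, n = 3), so that 28% of the Control mean was counted in Prmt1-null iGBs. The log2 fold change was −1.83 (standard error 0.361). It was the most negative among the tested genes with a mean normalized count over 100, and 25 genes with fewer counts had a more negative value, which puts it at rank 26 overall. The raw counts behind it were 217 to 265 in Control and 23 to 105 in Prmt1-null libraries.

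Ccdc38 had 1790, 1453 and 877 normalized counts in Control and 420.2, 719 and 726.9 in Prmt1-null iGBs. Here the Control libraries were spread, and the lowest of them, replicate 3, was only a little above Prmt1-null replicates 2 and 3. Prmt1-null replicate 1 was again the lowest of the 6. The means were 1373 ± 462 (SD, n = 3) and 622 ± 175 (SD, n = 3), or 45.3% of the Control level, which is −1.14 on the log2 scale (standard error 0.233).

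Snrpf followed Ccdc38 library by library, with 1142, 1028 and 635.7 normalized counts in Control and 392.9, 597.4 and 611.6 in Prmt1-null iGBs. The groups did not overlap, but Control replicate 3 lay just above the highest Prmt1-null library. The mean was 935.3 ± 266 (SD, n = 3) in Control and 533.9 ± 122 (SD, n = 3) in Prmt1-null iGBs, or 57.1% of the Control level. At −0.81 on the log2 scale (standard error 0.204), Snrpf did not pass the threshold (adjusted p = 0.079, edgeR; exact permutation test, two-sided, p = 0.1, the smallest that 3 libraries against 3 allow). This depended on Control replicate 3, without which the log2 fold change was −1.02 (adjusted p = 0.00727, edgeR). With all 6 libraries, 3 of 6 other fits by edgeR, DESeq2 or limma-voom put Snrpf past the threshold. The adjusted p was 6.67e-07 in edgeR without the filter on low counts. In the rest it lay between 0.00218 (DESeq2) and 0.109 (edgeR with a replicate block).

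Lta4h, the most highly counted of the 5, had 5323, 5200 and 4668 normalized counts in Control and 3831, 4948 and 4883 in Prmt1-null iGBs. The groups overlapped, and Prmt1-null replicate 1 was once more the lowest library. The means of 5064 ± 348 (SD, n = 3) and 4554 ± 627 (SD, n = 3) differed by −0.15 on the log2 scale (standard error 0.0896, edgeR adjusted p = 0.495), which did not pass the threshold. Without Prmt1-null replicate 1 the log2 fold change was −0.04 (adjusted p = 0.91, edgeR).

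Hal was close to the limit of detection. Its raw counts were 8, 2 and 11 in Control and 16, 36 and 20 in Prmt1-null libraries, where 3 counts were taken as the smallest number detected. Every Prmt1-null library had more than every Control library, in contrast to Amdhd1. The log2 fold change of 1.55 (standard error 0.764) did not pass the test (adjusted p = 0.404, edgeR), and at this depth a difference could not be told from the spread between libraries.

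**Figure D2:**
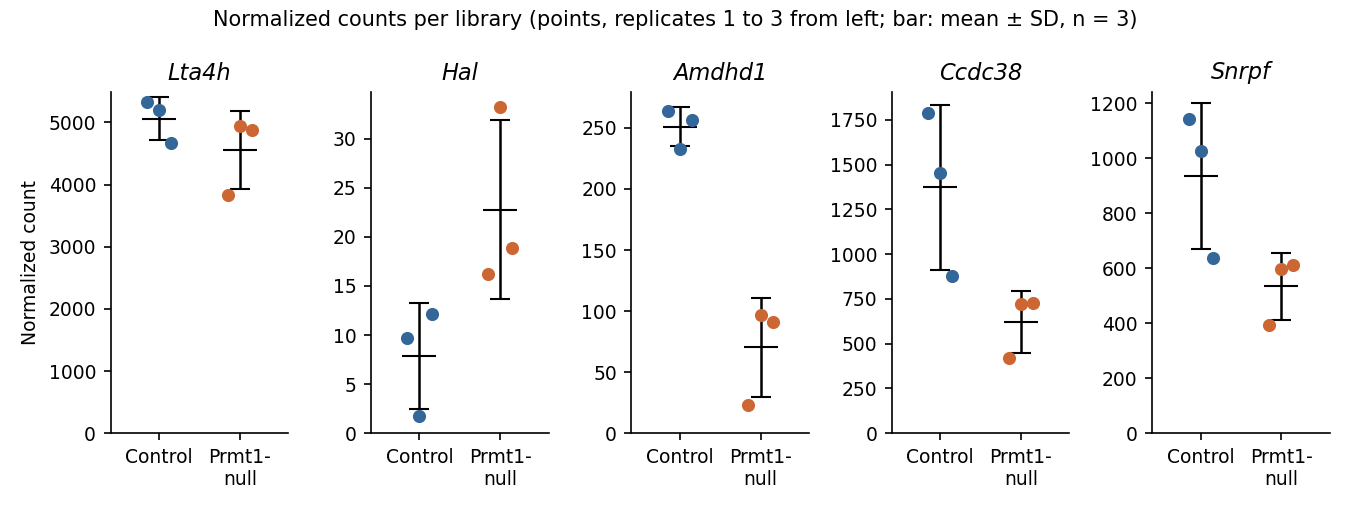
Normalized counts (y axes from 0, 1 scale per gene) of Lta4h, Hal, Amdhd1, Ccdc38 and Snrpf in the 3 Control (blue) and 3 Prmt1-null (orange) libraries, shown as points, with the mean and SD as bars. The groups are apart for Amdhd1, nearly touch for Ccdc38 and Snrpf, and overlap for Lta4h, while Hal stays at or under 33.19 in all libraries.

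To compare the genes with each other, counts were divided by the exon length of each gene, which gives reads per kilobase of exon at equal library size (RPKM). In Control iGBs Snrpf was at 19.6 ± 5.56 RPKM (SD, n = 3) and Lta4h at 15 ± 1.03, which do not differ beyond their spread. Ccdc38 was at 5.75 ± 1.93, Amdhd1 at 1.87 ± 0.121 and Hal at 0.0256 ± 0.0176 RPKM, each clearly below the gene before it. In Prmt1-null iGBs Lta4h was at 13.5 ± 1.85 and Snrpf at 11.2 ± 2.56 RPKM, which again do not differ beyond their spread. Ccdc38 was at 2.61 ± 0.732, Amdhd1 at 0.523 ± 0.304 and Hal at 0.074 ± 0.0297 RPKM. As 735 of the 861 exon bases of Snrpf are shared, its level is too low if reads from these were dropped. When the longest transcript was used as the length in place of all exons, Lta4h was at 28.3 RPKM in Control and stood above Snrpf.

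Ratios within a library do not depend on its scaling. For Ccdc38 and Snrpf the ratio varied little within a group, with 1.57, 1.41 and 1.38 raw counts on Ccdc38 for each count on Snrpf in Control and 1.07, 1.2 and 1.19 in Prmt1-null iGBs. The ratio was lower in every Prmt1-null library than in every Control library, with means of 1.45 ± 0.0999 and 1.15 ± 0.0735 (SD, n = 3). Reads from the exons shared by Ccdc38 and Snrpf may have been dropped or assigned to the other gene. Their part in this ratio was not tested. Amdhd1 did not follow Ccdc38 and Snrpf as closely. There were 0.147, 0.16 and 0.293 counts on Amdhd1 per count on Ccdc38 in Control and 0.0554, 0.135 and 0.125 in Prmt1-null libraries. In Control replicate 3, where Ccdc38 and Snrpf were low, Amdhd1 was as high as in the other Control libraries.

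The values were also compared within each sex. Among females, with 2 mice per genotype, Prmt1-null iGBs had 24.5% of the Control count of Amdhd1, 48.9% of Ccdc38, 59.5% of Snrpf and 89% of Lta4h. In the 1 male of each genotype these shares were 34.4%, 40.6%, 53.6% and 91.7%. Hal, with few counts, went the other way, at 356% among females and 195% in the males. The sexes cannot be compared firmly, since the male arms are 1 mouse each. An interaction of sex and genotype had a smallest unadjusted p of 0.532 over the 5 genes (edgeR, smallest adjusted p 0.904), but this fit has few residual degrees of freedom and could hardly pass.

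Genes with a pattern like that of Amdhd1 or Ccdc38 were sought among the tested genes with a mean normalized count over 100, by the root mean square (RMS) difference of their log2 CPM over the 6 libraries after each gene's own mean was taken off. For Ccdc38 the nearest of 13091 genes was its overlapping neighbor Snrpf (RMS difference 0.184, against a median of 0.704 over all of them). Mblac2 (0.293), Plcd3 (0.314), Sorcs1 (0.332) and Efnb1 (0.333), which lie on other chromosomes, followed. For Amdhd1 the nearest gene was Ccdc41os1, now named Cep83os (RMS difference 0.54), followed by Ccdc38 (0.673), Efnb1 (0.679), Lnpep (0.781) and Slc16a4 (0.783), against a median of 1.215. The measure includes the difference between the groups, for which Amdhd1 and Ccdc38 were both chosen. Their nearness to each other and to other genes that were lower was thus partly fixed by that choice and is a description. Snrpf ranked as number 10 for Amdhd1, and Lta4h as number 706. Amdhd1 ranked as number 4580 for Ccdc38. The RMS difference of this pair is 0.673 in either direction, and the ranks differ because the measure is not scaled for spread, as Amdhd1 varied more around its mean (RMS 1.206) than Ccdc38 (0.69).

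Ccdc41os1 (ENSMUSG00000097164), a noncoding RNA gene, also lies on chromosome 10, at chr10:94671025-94688576, and starts 1149 kb from Amdhd1. Its normalized counts were 1367, 1363 and 718.4 in Control and 97.2, 654.5 and 829.9 in Prmt1-null iGBs. As with Ccdc38 and Snrpf, Control replicate 3 was the lowest Control library and Prmt1-null replicate 1 the lowest of all, but here the groups overlapped. A difference of −1.12 on the log2 scale (standard error 0.47) did not pass the threshold (adjusted p = 0.303, edgeR). Ccdc41, now Cep83, which starts head to head with it and encodes a protein of the distal appendages of centrioles, had 922.2, 932.4 and 650.1 normalized counts in Control and 852.5, 794.6 and 742 in Prmt1-null iGBs. Control replicate 3 was again the lowest Control library, but Prmt1-null replicate 1 was not low, and the log2 value was −0.07 (standard error 0.14, adjusted p = 0.875, edgeR).

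**Figure D3:**
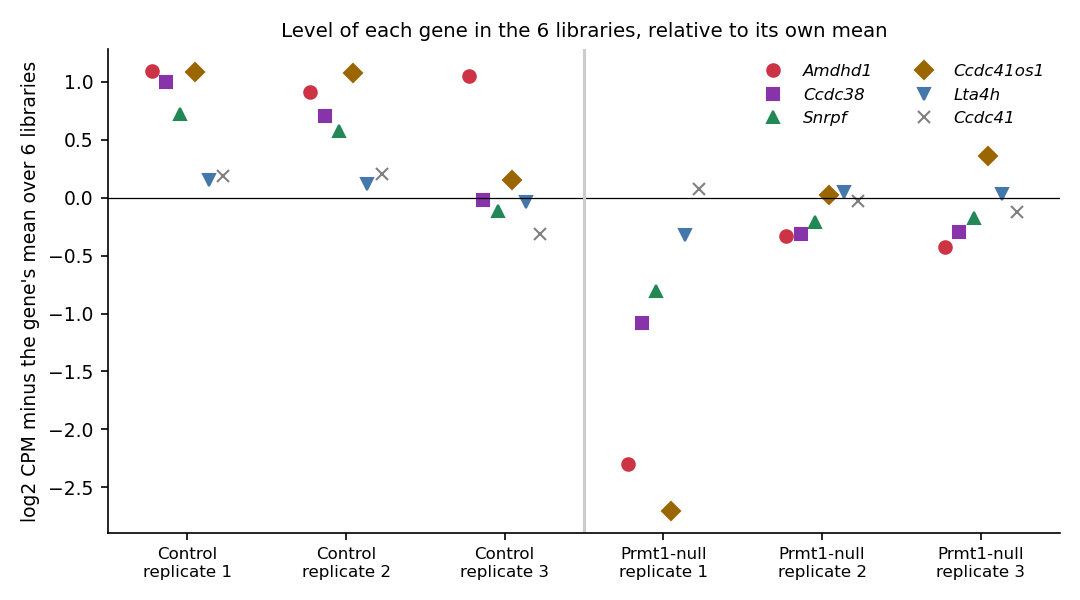
Level of Amdhd1, Ccdc38, Snrpf, Lta4h, Ccdc41os1 and Ccdc41 in each of the 6 libraries (x axis), as log2 CPM minus the gene's mean over the 6 libraries (y axis). Prmt1-null replicate 1 is the lowest library for Amdhd1 (−2.3), Ccdc41os1 (−2.70), Ccdc38 (−1.08) and Snrpf (−0.81), and Control replicate 3 is near 0 for Ccdc38 and Snrpf but at 1.05 for Amdhd1.

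Around the 5 genes, 28 other genes of the count table start within 1000 kb of Amdhd1, and 15 of them had enough counts for the test, 10 with a mean over 100 that allows a call. None of the 15 was called by edgeR, 3 had an unadjusted p under 0.05, as did 13.5% of all tested genes, DESeq2 called 1 of them and limma-voom 0. Their median log2 fold change was −0.057, against −0.001 over all genes tested. On the whole of chromosome 10, 7 genes were called as higher and 5 as lower among 816 tested, where 1.18% of all genes were called. The 5 include Amdhd1 and Ccdc38, whose calls chose the region.

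Within 250 kb, the tested genes other than the members were Elk3, an ETS family transcription factor (log2 fold change −0.09, standard error 0.0873), the noncoding RNA gene 4933408J17Rik (−0.41, standard error 0.686) and the processed pseudogenes Gm8580 (−0.10, standard error 0.597) and Gm3571 (0.13, standard error 0.119). None was called. Reads of the pseudogenes may be shared with their parent genes, and Elk3 and Cdk17 overlap in 316 exon bases, so that these counts are uncertain. Of these, 4933408J17Rik overlaps the start of Snrpf and had 7.024 to 35.23 normalized counts, with groups that overlapped. Cdk17, a PCTAIRE kinase, and Metap2, which trims the initiator methionine, were the most highly counted of the remaining genes and differed little (log2 fold changes of −0.06 and 0.05). Ntn4, the next protein-coding gene beyond Snrpf, had 0 counts in 5 of the 6 libraries.

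The 3 genes with an unadjusted p under 0.05, named after their values were seen, were Usp44, Tmcc3 and Cfap54. Usp44, a deubiquitinase, had 61.96, 40.39 and 70.52 normalized counts in Control and 158, 142.9 and 112.5 in Prmt1-null iGBs. It was higher in every Prmt1-null library, by 1.26 on the log2 scale (standard error 0.293, edgeR adjusted p = 0.0564), but its mean count was just under the 100 that a call requires. Without Control replicate 3 it was called (1.44, adjusted p = 0.0359, edgeR), with a mean count that was then over 100. Tmcc3, a membrane protein of the endoplasmic reticulum, had 826.2, 969.3 and 860.5 against 729, 626.9 and 677.8 normalized counts (log2 fold change −0.39, standard error 0.115, adjusted p = 0.134, edgeR), and DESeq2 called it (adjusted p = 0.0322). Cfap54, a ciliary protein, was at −0.92 (standard error 0.421, adjusted p = 0.362, edgeR), with groups that overlapped.

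Of the histidine genes other than Hal and Amdhd1, 0 of 4 had enough counts for the test. Uroc1 and Ftcd, which work before and after Amdhd1 in the route, had 0 counts in all 6 libraries, which allows up to 3 counts or 0.0475 to 0.0657 CPM per library. Hdc, which turns histidine into histamine, had 1.844 to 26.33 normalized counts and Hnmt, which inactivates histamine, had 26.73 in Control replicate 1 and 0 elsewhere. Of the 4 enzymes of the route, Amdhd1 was thus the one with more than traces. Defining markers of hepatocytes were absent, with Alb and Ttr at 0 in all 6 libraries and the 5 hepatocyte markers summing to at most 0.0665 CPM. The 5 keratinocyte markers summed to 0.755 to 1.84 CPM, with Krt1 at 0.

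Among the other leukotriene genes, 6 of 14 were tested, but only Mgst2 and Mgst3, 2 of the 6, had a mean normalized count over 100 and could be called. None was called by edgeR, DESeq2 or limma-voom, and 2 had an unadjusted p under 0.05 in edgeR, against 13.5% of all tested genes. Their median log2 fold change was 0.603. Mgst2, a microsomal glutathione transferase that can make leukotriene C4, was at −0.63 on the log2 scale (standard error 0.225, edgeR adjusted p = 0.215) with groups that overlapped, and was called without Control replicate 3 (−0.86, adjusted p = 0.0333, edgeR). Mgst3 (0.21, standard error 0.193) and Pla2g4a, the phospholipase that releases arachidonic acid (0.31, standard error 0.355), had lower mean counts than Mgst2. The remaining tested genes, named after their values were seen, were the leukotriene receptors Cysltr2 (0.98, standard error 0.392) and Cysltr1 (1.00, standard error 0.702) and Alox5ap, which presents arachidonic acid to Alox5 (0.90, standard error 0.42). Cysltr2 had the other unadjusted p under 0.05, with groups that overlapped. The groups of Cysltr1 and Alox5ap did not overlap, as for 19.9% of all tested genes. Raw counts of Cysltr1 were low, at 4 to 16 in Control and 20 to 28 in Prmt1-null libraries. For Alox5ap they were 22 to 34 and 43 to 67, and neither gene passed the threshold (adjusted p = 0.586 and 0.371, edgeR). Alox5, which makes the substrate of Lta4h, had at most 6.611 normalized counts and was not tested.

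Of 12 other genes of the Sm ring and the U snRNPs, 11 were tested. None of the 11 was called by edgeR, DESeq2 or limma-voom, and 1 had an unadjusted p under 0.05 in edgeR, against 13.5% of all tested genes. Their log2 fold changes ran from −0.26 to 0.18 with a median of 0.053, against −0.81 for Snrpf. Snrnp70 (0.05, standard error 0.0678), Snrpa (0.18, standard error 0.0646) and Snrpb (−0.10, standard error 0.107) were the most highly counted of them. Snrpb, at 23.6 RPKM, and Snrpe, at 21 RPKM, had Control levels per length close to that of Snrpf when all exons were used as the length, but with the longest transcript these were 27.2 and 43 RPKM against 19.6 for Snrpf. The difference between Snrpf and these genes was not tested, and the count of Snrpf is uncertain because of its shared exons.

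**Figure D4:**
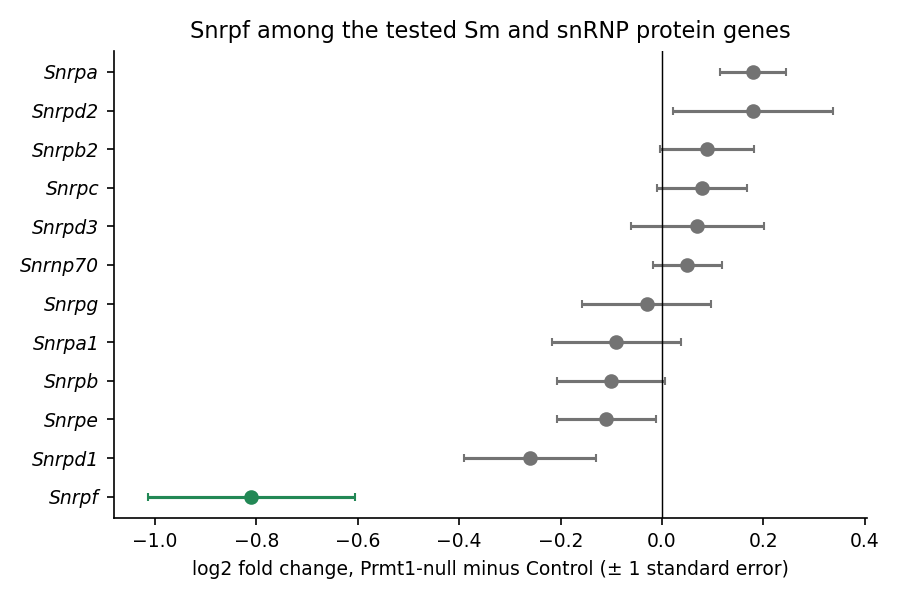
Log2 fold change (Prmt1-null minus Control, x axis) with 1 standard error for Snrpf (green) and the 11 other tested Sm and U snRNP protein genes (gray). Snrpf is at −0.81 and the others lie between −0.26 and 0.18.

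For Ccdc38, genes of cilia and sperm tails were compared. Of 12 such genes other than Ccdc38, 9 were tested, 6 had a mean count that allows a call, none was called by edgeR, DESeq2 or limma-voom, and 1, Cfap54, had an unadjusted p under 0.05 in edgeR, against 13.5% of all tested genes. Odf2, of the outer dense fibers and centrioles (log2 fold change −0.04, standard error 0.0737), Hook1 (−0.08, standard error 0.108) and Rfx3, a transcription factor of ciliary genes (−0.17, standard error 0.0987), were the most highly counted. Over the 9 tested genes the log2 fold changes ran from −0.92 to 0.19 with a median of −0.165, against −0.001 over all genes tested. Ccdc42 and Odf1, which are sperm tail genes, had 0 counts in all libraries.

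Amdhd1 and Ccdc38 are 1 of 926 pairs of tested genes that stand head to head on opposite strands with starts within 1000 bases of each other. Both genes of the pair were called for this pair and for no other, while 1 of the genes was called in 32 pairs. The signs of the log2 fold changes agreed in 522 of the 926 pairs (56.4%). As the pair was chosen for its values, this is a description. Pairs were counted only with the edgeR fit that set the calls, and the call of Ccdc38 was lost in some alternatives. When starts within 300 bases were required, which leaves out Amdhd1 and Ccdc38, 0 of 756 pairs had both genes called.

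**Figure D5:**
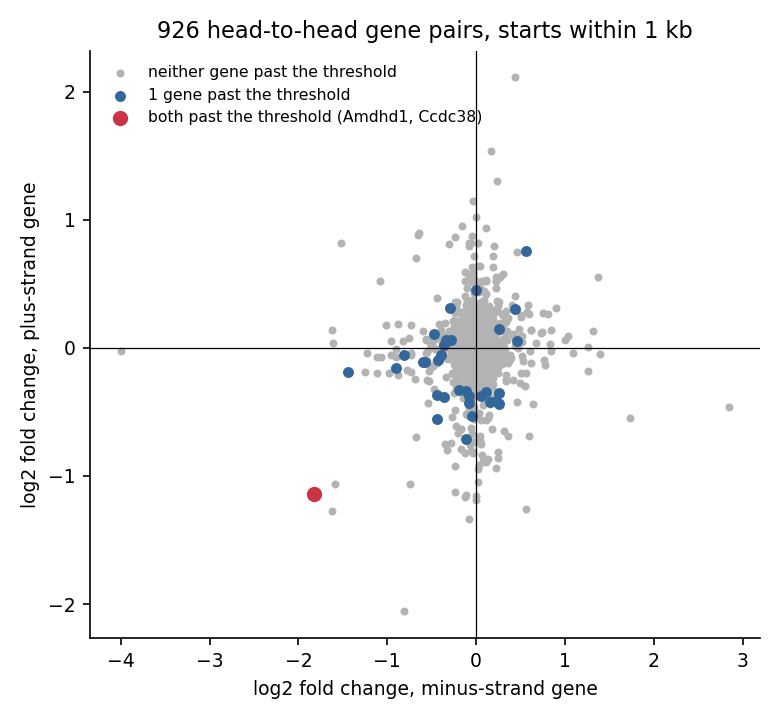
Log2 fold changes (Prmt1-null minus Control) of the minus-strand gene (x axis) and the plus-strand gene (y axis) of 926 head-to-head pairs, each point being 1 pair. Amdhd1 and Ccdc38 (red, −1.83 and −1.14) are the pair in which both genes passed the threshold, 32 pairs have 1 such gene (blue), and the others lie mostly near 0.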

How the data were processed

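RNA-seq was compared between 3 Control and 3 Prmt1-null iGB libraries, each from 1 mouse. Per the methods and the submitters' processing notes, the authors used Trimmomatic 0.32 for trimming, STAR 2.3.0e for alignment to mm10 and featureCounts 1.4.4 for counting primary alignments in exons of Ensembl genes. RNA was depleted of rRNA. The authors deposited whole-number counts that were not normalized. Genes were matched to GENCODE M21 by gene ID (37607) or symbol (804), and 606 had no match.

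The 398 genes of chromosome Y were left out. Counts were filtered by filterByExpr (minimum count 10), normalized by TMM and tested with the quasi-likelihood test of edgeR 4.0.16 in R 4.3.3, on 18268 genes (biological coefficient of variation 0.154). DESeq2 1.42.0, limma-voom (limma 3.58.1), DESeq2 size factors, no filter, a replicate block, sex as a covariate and each library left out in turn were alternatives. Scripts were tested on simulated data. Floors of 3 counts cover counting error only.

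The members, gene lists and tests were chosen with earlier results of these data known. Named were the members, Prmt1, tested genes within 250 kb, called list genes, up to 3 further genes per list by mean count, and the 5 genes most like Amdhd1 or Ccdc38 in pattern. Usp44, Tmcc3, Cfap54, Ccdc41, Snrpe, Ntn4, Xbp1, Jchain, Prdm1, Sdc1, the myeloid markers, Cysltr1, Cysltr2, Alox5ap and list genes at or near 0 were named after their values were seen. Of the B cell markers, 2 are reported and the others are not reported here.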

Additional observations from a re-analysis of the deposited data

How the results depend on the processing

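The sign of the log2 fold change did not change for any of the 5 genes under any alternative. With libraries left out, the log2 fold change ran from −2.12 to −1.41 for Amdhd1, −1.38 to −0.90 for Ccdc38, −1.02 to −0.63 for Snrpf, 1.05 to 2.03 for Hal and −0.21 to −0.04 for Lta4h. The call that chose Amdhd1 remained in 2 of these 6 fits (without Control replicate 3 or Prmt1-null replicate 1) and was lost without any of the other 4 libraries, while that of Ccdc38 remained in 1 of 6 (without Control replicate 3), and Snrpf was called in that same fit. With all libraries, Amdhd1 was called in 6 of 6 alternatives and Ccdc38 in 4 of 6, with DESeq2 (−1.14) and the replicate block (−1.12) as the exceptions. Snrpf passed the threshold with DESeq2 (−0.81), no filter (−0.80) and sex as a covariate (−0.80). The count of all genes called was 216, and became 746 with DESeq2, 675 with no filter, and 31 to 340 with a library left out, the lowest without Prmt1-null replicate 2 and the highest without Control replicate 3. The other counts that moved were those of the 1000 kb window, from 0 to 1 with DESeq2 (Tmcc3) and 0 to 1 with a library left out (Usp44), of the leukotriene genes, from 0 to 1 with no filter (Mgst2) and 0 to 1 with a library left out, and of head-to-head pairs with both genes called, from 1 to 0 when starts within 300 bases were required. Head-to-head pairs were counted only with the edgeR fit that set the calls. In fits where Amdhd1 or Ccdc38 lost its call, this pair did not have both genes called. The causes of these shifts were not tested.

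Replicate numbers are shared by different mice. Deviations of same-numbered libraries correlated at −0.075, 0.045 and −0.078, and Control replicate 1 correlated best with Prmt1-null replicate 3 (0.127). Both of the latter come from male mice, so the correlations cannot decide whether the numbers pair the samples. With the replicate block, 151 genes were called, and the log2 fold changes were −1.97 for Amdhd1, −1.12 for Ccdc38, −0.79 for Snrpf, 1.63 for Hal and −0.16 for Lta4h. For Hal, with 2 to 36 raw counts, depth limits what can be seen.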
